A study of Mus musculus with 12 samples.

Results

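The MHC class II genes are 10 mouse genes: H2-Aa, H2-Ab1, H2-Eb1, H2-Eb2, Cd74, H2-DMa, H2-DMb1, H2-Oa, H2-Ob and Ciita. They were found by gene name among the 34650 gene names of an Agilent expression array, where 14 probes carry these names. All 10 had a probe above background and entered the test of 16496 genes. Splenic B cells were isolated by negative selection from 9-week-old female BALB/c mice that were either wild type or deficient in STAT6, the transcription factor that carries the interleukin-4 (IL-4) signal to the nucleus. All cells received anti-CD40 antibody at 10 µg/ml and lipopolysaccharide (LPS) at 2 µg/ml for 4 days, also in the groups called controls. IL-4 at 25 ng/ml was added or left out, which gave 4 groups of 3 arrays: wild type, wild type with IL-4, knockout and knockout with IL-4. The labels do not say whether the 3 samples of a group came from separate animals, so p-values measure only the spread between these samples, which may be technical. In such bulk samples, fewer cells of a type and less RNA per cell cannot be told apart.

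MHC class II molecules carry peptides from engulfed antigen to the cell surface, where CD4 T cells read them. In B cells, the α and β chains of the I-A and I-E molecules assemble in the endoplasmic reticulum on the invariant chain (Cd74), and the DM heterodimer later exchanges the invariant chain's remnant for a peptide. The DO heterodimer binds DM and dampens it. Transcription of these genes depends on CIITA, a coactivator with no DNA-binding activity of its own, which is recruited by factors bound to the X and Y boxes of their promoters. Raised class II on B cells is a classical response to IL-4 in mice.

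On each array 40.7% to 44.0% of the 59305 non-control spots passed the scanner's background test, and 0 spots were saturated. Precision is limited by the number of arrays. The 6 wild-type arrays shared slide 1 with knockout controls 1 and 2. The 3 knockout arrays given IL-4 shared slide 2 with the remaining knockout control, number 3. Levels are log2 signals relative to the 75th percentile of the same array, so a level of 0 is that percentile. Calls are limma tests at an adjusted p under 0.05, with Benjamini-Hochberg adjustment over all genes tested. The brightest Stat6 probe was 1.94 lower (log2) in the knockout in both culture conditions (adjusted p = 1.03e-06 without IL-4 and 1.83e-08 with it), and it stayed above background there. On the other kept Stat6 probes the knockout minus wild-type differences were -0.88 and -2.275 without IL-4. With IL-4 they were -1.28 and -2.36. The B cell markers Cd79a, Cd79b, Ms4a1, Cd22, Pax5 and Blk were each above background on all 12 arrays. Fcer2a, the low-affinity IgE receptor and a known IL-4 target, rose by 1.60 (adjusted p = 1.85e-09) in wild-type cells and by 0.63 (adjusted p = 9.22e-06) in knockout cells.

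With IL-4, 3 of the 10 class II genes rose in wild-type cells (H2-DMa, H2-DMb1 and H2-Oa), 2 fell (H2-Eb2 and H2-Ob) and 5 did not pass the test. Of all genes tested, 26.4% were called higher and 30.8% lower in that comparison, so both shares of members lay near the background. In STAT6-deficient cells IL-4 was followed by lower levels of 8 of 10 members and higher levels of none, against 14.7% of all genes lower and 27.5% higher. At an unadjusted p under 0.05, limma likewise gave 0 members higher there. The response was more positive in wild-type than in knockout cells for 7 of 10 members by the test of the difference itself, and for none was it more negative (0 also at an unadjusted p under 0.05). In that test 16.4% of all genes passed as higher and 28.3% as lower. The median difference was 0.58 (log2) over the members, 0.44 over the members without Ciita, whose probe was dim, and -0.10 over all genes.

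**Figure D1:**
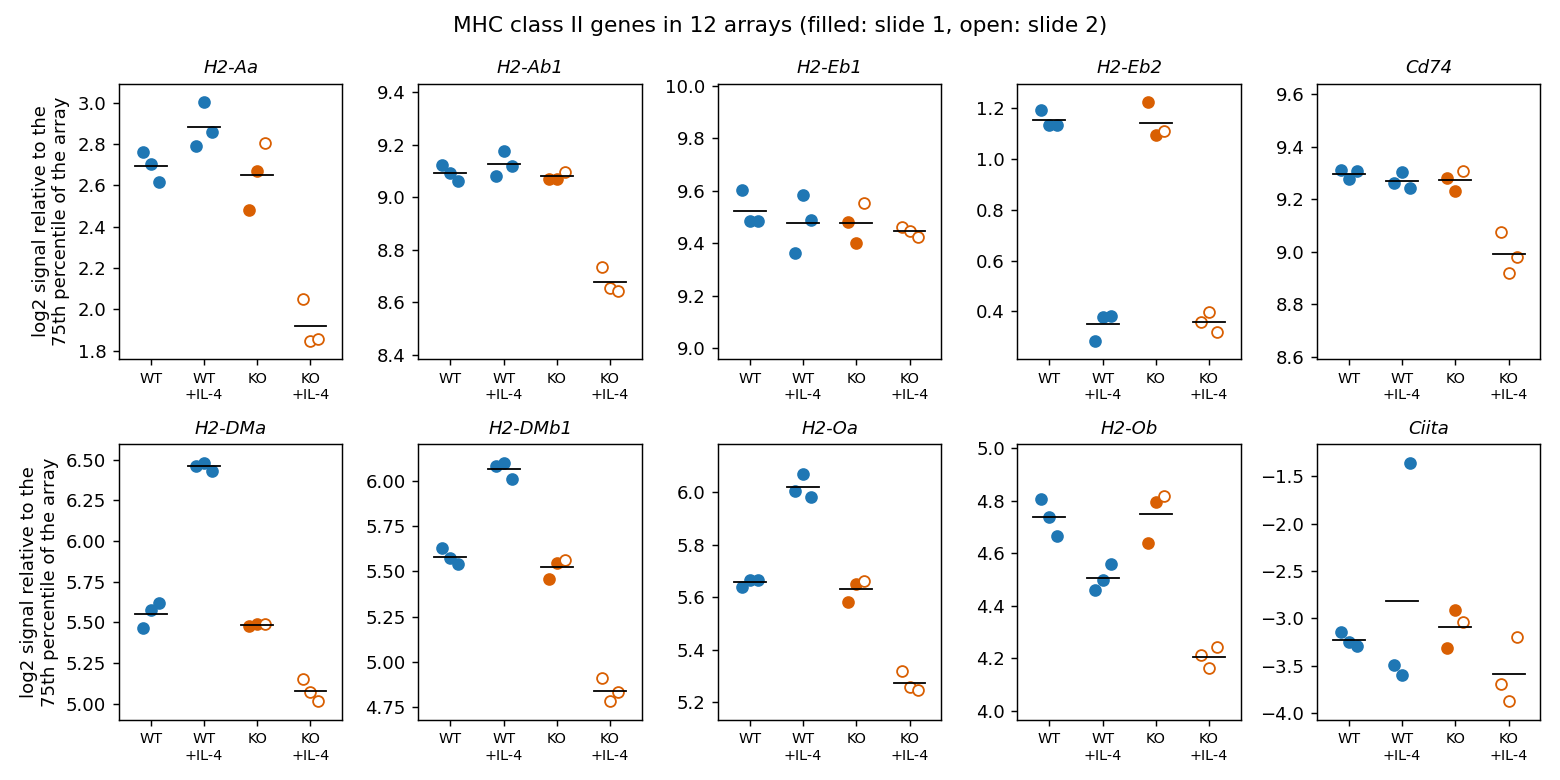
Level of each class II gene on each of the 12 arrays, as log2 signal relative to the array's 75th percentile. Points are arrays, lines are group means, blue is wild type, orange is STAT6 knockout, filled points lie on slide 1 and open points on slide 2. For the 8 genes called lower in the knockout, as 14.7% of all genes were, the 3 arrays with IL-4 lie below all 3 without it. How many of all genes separate in this way was not counted. For H2-Eb1 and Ciita the arrays with and without IL-4 overlap in both genotypes.

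The probes of the classical I-A and I-E chains differed from each other in their responses. That of H2-Aa was dim beside those of H2-Ab1 and H2-Eb1 below, at 0.355% of the scanner's saturation value on its brightest array. H2-Aa, the I-A α chain, stood at 2.76, 2.70 and 2.62 in wild-type cells and at 2.79, 3.00 and 2.86 with IL-4. It stood at 2.48, 2.67 and 2.80 in knockout cells and at 2.05, 1.85 and 1.86 with IL-4. The groups did not overlap in either genotype, but only the knockout difference passed the test. In wild type the change was 0.19 (SE 0.0926, adjusted p = 0.105), and in the knockout it was -0.73 (SE 0.0926, adjusted p = 0.000176), a 1.66-fold lower level. The responses differed by 0.92 (SE 0.131, adjusted p = 0.000301).

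H2-Ab1, the I-A β chain, was among the brightest spots, at 26% of the scanner's saturation value on its brightest array. Its level was 9.12, 9.09 and 9.06 in wild-type cells and 9.08, 9.18 and 9.12 with IL-4, and these ranges overlapped. In knockout cells it was 9.07, 9.07 and 9.10 without IL-4, and with IL-4 all 3 arrays were lower, at 8.73, 8.66 and 8.64. The change was 0.03 in wild type (SE 0.0444, adjusted p = 0.544) and -0.40 in the knockout (SE 0.0444, adjusted p = 7.38e-05), and the responses differed by 0.44 (SE 0.0628, adjusted p = 0.000329). The wild-type value depended on scaling: under quantile normalisation it was 0.22 (adjusted p = 0.00201), and in the authors' deposited gene-level values it was 0.18 (adjusted p = 0.00312).

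The array reads H2-Ab1 with 2 probes at chr17:34406296-34406355 and chr17:34406305-34406363 (mm9, plus strand). They share 51 bases with 1 base of difference, T51C, with positions counted from 1 at the 5′ end of the first probe. The 30 bases around it are shown with the differing base in capitals.
A_55_P1962747: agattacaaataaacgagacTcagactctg
A_55_P2146560: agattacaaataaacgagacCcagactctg
On both probes the knockout with IL-4 was the lowest group. The first changed by -0.01 in wild type and -0.31 in the knockout, and the second, which stands for the gene above, by 0.03 and -0.40. BALB/c mice carry another haplotype of this region than C57BL/6, the strain of the reference genome. The match of either probe, or of the probes of the other members in the region, to BALB/c transcripts was not tested.

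H2-Eb1, the I-E β chain, gave the brightest spot of the members, at 32% of the saturation value. It stood at 9.60, 9.48 and 9.49 in wild-type cells, 9.36, 9.58 and 9.49 in wild type with IL-4, 9.48, 9.40 and 9.55 in knockout cells, and 9.46, 9.45 and 9.42 in the knockout with IL-4. Arrays with and without IL-4 overlapped in both genotypes, while the 3 knockout arrays with IL-4 lay just below the 3 wild-type arrays without it. The change with IL-4 was -0.05 in wild type (adjusted p = 0.57) and -0.03 in the knockout (adjusted p = 0.72). Their difference was -0.01, with a 95% interval from -0.22 to 0.19, which leaves out the difference seen for H2-Aa. In the authors' deposited gene-level values the wild-type change was 0.12 (adjusted p = 0.042), of the opposite sign.

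H2-Eb2, an additional E β gene that lies beside H2-Eb1, fell in both genotypes. Its level was 1.19, 1.13 and 1.13 in wild-type cells and 0.29, 0.38 and 0.38 with IL-4. In knockout cells it was 1.22, 1.09 and 1.11, and 0.36, 0.40 and 0.32 with IL-4. Arrays with and without IL-4 were fully separated, and the genotypes overlapped within each condition. The level was 1.75-fold lower in wild type (log2 change -0.80, SE 0.0512, adjusted p = 3.57e-07) and 1.72-fold lower in the knockout (-0.78, SE 0.0512, adjusted p = 3.33e-06). The responses differed by -0.02 (adjusted p = 0.828), with a 95% interval from -0.18 to 0.14.

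Cd74, the invariant chain, followed H2-Ab1 most closely of all members. Over the 12 arrays, with each gene centred on its own mean, the root mean square difference of the 2 genes was 0.0687 (log2), the smallest of any pair. Cd74 stood at 9.31, 9.28 and 9.31 in wild-type cells, 9.26, 9.31 and 9.24 with IL-4, 9.28, 9.23 and 9.31 in knockout cells, and 9.08, 8.92 and 8.98 in the knockout with IL-4. The last 3 values were the lowest of the 12. Its change was -0.03 in wild type (adjusted p = 0.642) and -0.28 in the knockout (SE 0.0489, adjusted p = 0.00122), a 1.22-fold lower level. The responses differed by 0.25 (SE 0.0691, adjusted p = 0.0137). The wild-type value turned to 0.14 under quantile normalisation (adjusted p = 0.0317) and to 0.15 in the authors' deposited values (adjusted p = 0.0238).

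The DM genes showed the widest gap between the genotypes among the members that passed. H2-DMa, the DM α chain, stood at 5.47, 5.58 and 5.62 in wild-type cells and at 6.46, 6.48 and 6.43 with IL-4. In knockout cells it stood at 5.48, 5.49 and 5.49, and IL-4 was followed by 5.15, 5.08 and 5.02. All 3 wild-type arrays with IL-4 were above every other array, and all 3 knockout arrays with IL-4 were below every other array. The level was 1.87-fold higher in wild type (log2 change 0.91, SE 0.0518, adjusted p = 1.63e-07) and 1.33-fold lower in the knockout (-0.41, SE 0.0518, adjusted p = 0.000184). The responses differed by 1.31 (SE 0.0733, adjusted p = 3.53e-07).

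H2-DMb1, a DM β chain gene, moved in the same directions. It stood at 5.63, 5.57 and 5.54 in wild-type cells and at 6.08, 6.10 and 6.01 with IL-4. It stood at 5.46, 5.55 and 5.56 in knockout cells and at 4.91, 4.78 and 4.83 with IL-4. As for H2-DMa, the groups with IL-4 lay on opposite sides of the controls. The level was 1.40-fold higher in wild type (log2 change 0.48, SE 0.0521, adjusted p = 2.08e-05) and 1.60-fold lower in the knockout (-0.68, SE 0.0521, adjusted p = 7.99e-06), and the responses differed by 1.16 (SE 0.0737, adjusted p = 8.81e-07). A second, dim probe, drawn from another transcript of the gene, changed by -0.10 in wild type (adjusted p over all probes kept = 0.494) and by -1.26 in the knockout, also with a difference of 1.16.

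H2-DMb2, the neighbouring second DM β gene, is not a member but is close kin. It changed by 0.44 in wild type (adjusted p = 0.000527) and by -0.47 in the knockout (adjusted p = 0.000675). The probes may read both β genes to some extent, which was not tested.

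The DO genes divided. H2-Oa, the DO α chain, stood at 5.64, 5.67 and 5.67 in wild-type cells and at 6.01, 6.07 and 5.98 with IL-4. In knockout cells it stood at 5.58, 5.65 and 5.66, and at 5.32, 5.26 and 5.25 with IL-4. It thus had the order of groups seen for DM. The level was 1.29-fold higher in wild type (log2 change 0.36, SE 0.044, adjusted p = 4.94e-05) and 1.28-fold lower in the knockout (-0.36, SE 0.044, adjusted p = 0.00015). The responses differed by 0.72 (SE 0.0622, adjusted p = 8.8e-06).

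H2-Ob, the DO β chain, stood at 4.81, 4.74 and 4.67 in wild-type cells and at 4.46, 4.50 and 4.56 with IL-4. In knockout cells it stood at 4.64, 4.79 and 4.82, and at 4.21, 4.16 and 4.24 with IL-4. On this probe, the brightest of the gene, the arrays with IL-4 lay below the controls in both genotypes. The change was -0.23 in wild type (SE 0.0602, adjusted p = 0.00718) and -0.55 in the knockout (SE 0.0602, adjusted p = 7.39e-05). The responses differed by 0.31 (SE 0.0851, adjusted p = 0.0136).

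The probes of H2-Ob disagreed on the wild-type direction. A second probe, at chr17:34380481-34380849 (mm9), spans 369 bases of genome with its 60 bases, so it crosses an intron. It stood at 2.66, 2.66 and 2.61 in wild-type cells and at 3.00, 3.02 and 2.98 with IL-4. That was a rise of 0.36 (adjusted p over all probes kept = 0.000371), where the first probe fell. Both probes fell in the knockout, with changes of -0.55 and -0.34. The mean of both gave a wild-type change of 0.063 (adjusted p = 0.349), and a further H2-Ob probe was above background on 0 arrays and was not used.

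**Figure D2:**
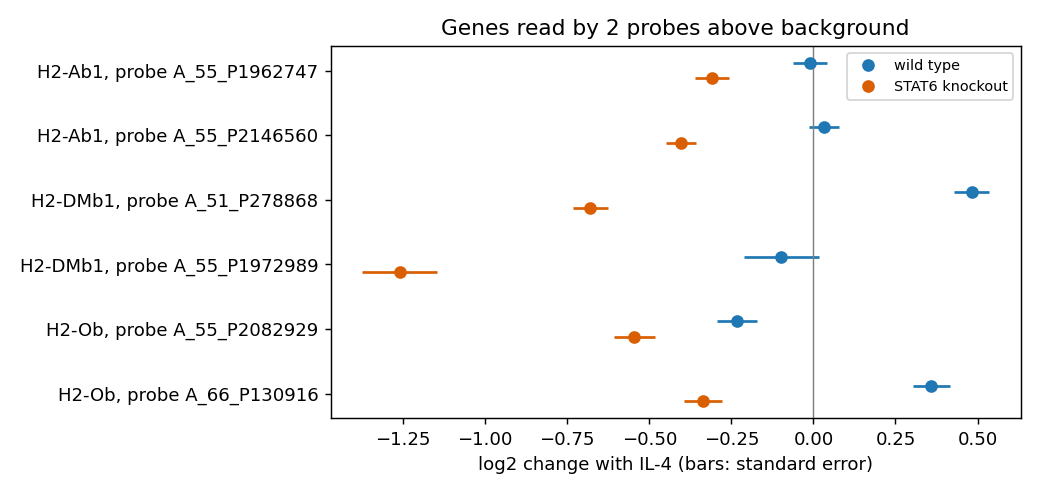
Log2 change with IL-4 for the 3 class II genes that have 2 probes above background, in wild-type (blue) and STAT6-knockout (orange) cells; bars are standard errors. The H2-Ob probes lie on opposite sides of 0 in wild type (-0.23 and 0.36), and every probe shown lies below 0 in the knockout.

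Ciita was read by 1 dim probe, at chr16:10526568-10526627 (mm9), which was well above background on 3 of 3 wild-type, 2 of 3 wild-type IL-4, 2 of 3 knockout and 1 of 3 knockout IL-4 arrays. The probe's sequence is a near repeat, and 30 of its 60 bases are shown, with capitals where the base is neither A nor C.
A_55_P2179074: aaaacaaaacaaaacGaaacaaaacaaaac
A and C make up 90% of the probe, against a median of 50% over all probes, and AAAC occurs 9 times in it. No other of the 55681 probes holds AAAC as often. The level was -3.14, -3.25 and -3.29 in wild-type cells, -3.49, -3.60 and -1.36 with IL-4, -3.31, -2.92 and -3.04 in knockout cells, and -3.70, -3.88 and -3.20 in the knockout with IL-4. A single wild-type IL-4 array was far above the other 11, and the groups overlapped. The change was 0.41 in wild type (SE 0.484, adjusted p = 0.489) and -0.50 in the knockout (SE 0.484, adjusted p = 0.437). Without that array the wild-type change was -0.31. These values give no direction for Ciita.

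**Figure D3:**
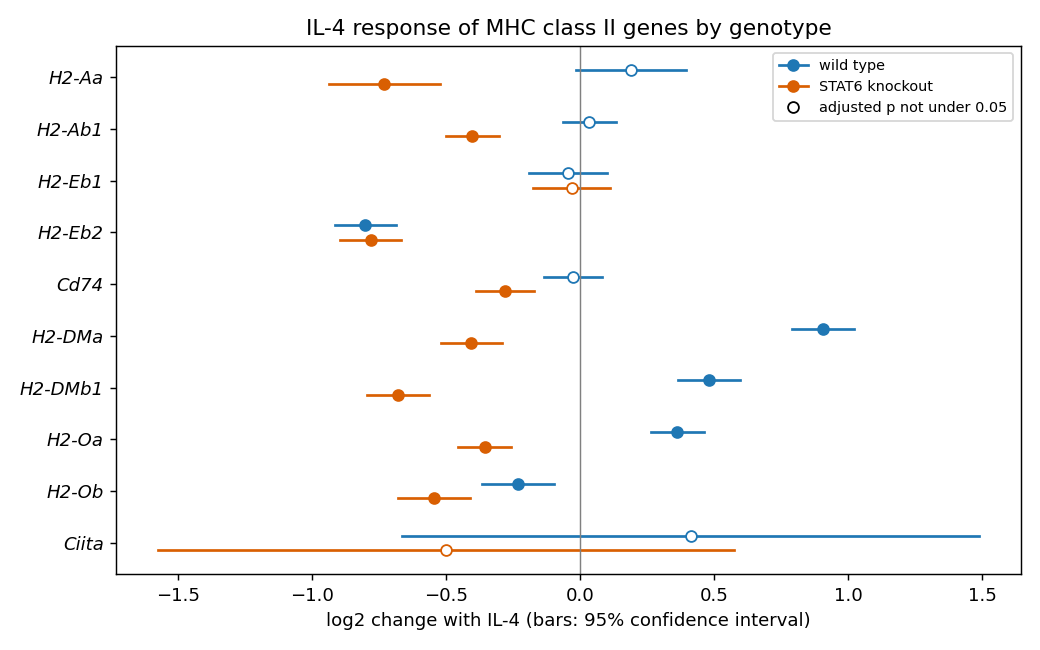
Log2 change with IL-4 for the 10 class II genes in wild-type (blue) and STAT6-knockout (orange) cells, with 95% confidence intervals; open points did not pass an adjusted p under 0.05. H2-DMa, H2-DMb1 and H2-Oa lie above 0 in wild type and below 0 in the knockout, and H2-Eb2 lies at -0.80 in wild type and -0.78 in the knockout.

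Without IL-4 the genotypes were close. None of the 10 members passed the limma test and 0 had an unadjusted p under 0.05, where 4.73% of all genes were called higher and 6.97% lower in the knockout. In the authors' deposited gene-level values 0 members passed too. The knockout minus wild-type differences ran from -0.07 for H2-DMa to 0.14 for Ciita. For H2-Ab1 the 95% interval was -0.11 to 0.09, and for H2-DMa it was -0.18 to 0.05. For the members other than Ciita, the widest interval was that of H2-Aa, -0.25 to 0.16.

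With IL-4, 7 of the 10 were lower in the knockout than in wild type and none was higher, against 21.3% of all genes lower and 29.8% higher. H2-DMa was 2.60-fold lower (log2 difference -1.38, SE 0.0518, adjusted p = 8.46e-09) and H2-DMb1 2.33-fold lower (-1.22, SE 0.0521, adjusted p = 2.23e-08). H2-Aa was 1.95-fold lower, H2-Oa 1.68-fold, H2-Ab1 1.37-fold (adjusted p = 1.37e-05), H2-Ob 1.23-fold and Cd74 1.21-fold (adjusted p = 0.000838). H2-Eb1, H2-Eb2 and Ciita did not pass. For H2-Eb1 that depended on scaling: the difference was -0.03 here (adjusted p = 0.698), -0.18 under quantile normalisation (adjusted p = 0.00972) and -0.20 in the authors' deposited gene-level values (adjusted p = 0.00396). This comparison uses the same IL-4 arrays as the responses above and is not independent of them.

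The number of members called in the knockout depended on how arrays were scaled. With each array centred on its median, 4 in place of 8 members were called lower, and H2-Ab1 (adjusted p = 0.0535), Cd74 (0.294), H2-DMa (0.0516) and H2-Oa (0.0861) no longer passed. That scaling raised the median response of all genes in the knockout from 0.05 to 0.20, and that of the members from -0.45 to -0.30. These member medians include Ciita, without which the first was -0.41. Under median scaling the difference of the responses passed for 4 in place of 7 members. It passed either way for 6412 in place of 7387 of all genes. Its median was -0.23 over all genes and 0.445 over the members, Ciita included. The knockout minus wild-type median without IL-4 moved from -0.04 to -0.225 over all genes. Within slide 2 alone, the 3 knockout IL-4 arrays can be set only against knockout control 3, so calls are not given for it. The changes there were -0.88 for H2-Aa, -0.75 for H2-Eb2 and -0.72 for H2-DMb1. Those of the other 5 members called lower over both slides were as large as over both slides. They were -0.42 for H2-Ab1, -0.32 for Cd74, -0.41 for H2-DMa, -0.39 for H2-Oa and -0.61 for H2-Ob. With a single control array on that slide, a slide effect cannot be told apart from that array's own deviation. With slide as a block, the knockout response again rests on control 3 alone, and its values equal those within slide 2. All 8 passed there, with the spread taken from all 12 arrays, so that fit is no separate check. In that fit the 7 differences of the responses also passed, from 0.29 for Cd74 (adjusted p = 0.0241) to 1.32 for H2-DMa (adjusted p = 7.47e-06). No slide holds IL-4 arrays of both genotypes, so the direct comparison of the genotypes with IL-4 has no value within a slide.

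Promoters of class II genes on chromosome 17 were searched for the core sequences that are known to bind class II activators. RefSeq promoter windows (GRCm38.p6, from 250 bases before to 50 after a gene's start) were given for 7 of the 10 members, and not for H2-Ab1, Cd74 and Ciita. Both strands were searched for ATTGG, the core of the Y box read by the NF-Y complex, and for AGNNACNGA, the core of the X1 box read by the RFX complex. All 7 held ATTGG in at least 1 window, as did 37.4% of the 32851 windows, and 5 held AGNNACNGA, as did 17.7% of windows. H2-Aa and H2-DMa held no AGNNACNGA. H2-DMa had 2 windows, and the first held neither core, so no stretch of it is shown. In the 60-base stretches below, written 5′ to 3′ on the gene's strand (minus for H2-Aa, plus for the others), capitals mark matches of the cores, which do not overlap.
H2-Eb1, chr17:34305763-34305822: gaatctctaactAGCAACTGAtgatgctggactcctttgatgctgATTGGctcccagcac
H2-Eb2, chr17:34325530-34325589: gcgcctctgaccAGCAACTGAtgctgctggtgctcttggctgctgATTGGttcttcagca
H2-DMb1, chr17:34153085-34153144: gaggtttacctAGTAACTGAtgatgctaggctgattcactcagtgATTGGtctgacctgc
H2-Oa, chr17:34092291-34092350: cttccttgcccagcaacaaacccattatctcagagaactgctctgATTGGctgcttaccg
H2-Ob, chr17:34238803-34238862: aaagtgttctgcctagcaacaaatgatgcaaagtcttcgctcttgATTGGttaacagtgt
H2-Aa, chr17:34287857-34287916: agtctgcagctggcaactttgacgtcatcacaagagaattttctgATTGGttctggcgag
H2-Eb1, H2-Eb2 and H2-DMb1 held the X1 core 15 to 45 bases before the Y core on the same strand, an arrangement chosen for the search after these sequences were seen and present in 0.374% of windows. Side by side, H2-Eb1 passed in neither genotype, H2-Eb2 fell in both, and H2-DMb1 rose in wild type and fell in the knockout. The STAT site letters TTCNNNGAA, and the same site with 4 bases in place of 3 between TTC and GAA, the spacing STAT6 prefers, were in 0 of the 7 members' windows, against 8.3% and 6.95% of all windows. No match says only that these letters are not in these windows.

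Among the transcription factors that act on class II genes, 18 of 18 listed were tested, of which Pax5, Prdm1 and Irf4 are also among the cell type markers too. With IL-4, 5 rose and 7 fell in wild type, and 6 rose and 3 fell in the knockout. The difference passed as higher for 2 and lower for 8. Over all genes tested, 26.4% rose and 30.8% fell in wild type, and 27.5% rose and 14.7% fell in the knockout. The difference passed as higher for 16.4% and lower for 28.3% of all genes. Rfx5, the DNA-binding subunit of RFX, changed by -0.72 in wild type (adjusted p = 3.17e-05) and by 0.03 in the knockout (adjusted p = 0.809). It fell in wild type where the DM genes rose. Nfya, a subunit of NF-Y, rose by 0.34 and 0.39 in the 2 genotypes (adjusted p = 0.000103 and 0.000115). Prdm1, the plasma cell factor that represses Ciita, fell in both genotypes, with a change of -2.81 in wild type (adjusted p = 9.17e-10) and -1.69 in the knockout (adjusted p = 6.42e-07). Bcl6, a repressor of Prdm1 in germinal centre B cells, rose by 1.14 in wild type (adjusted p = 9.6e-08) and fell by 0.42 in the knockout (adjusted p = 0.000373). Pax5, which keeps B cell identity, changed by -0.78 (adjusted p = 3.75e-06) and 0.23 (adjusted p = 0.022). Irf8 changed by -0.51 (adjusted p = 2.02e-06) and -0.04 (adjusted p = 0.493).

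The genes that process antigen and turn class II over had the same sign of difference as the members for the most part. Of 12 listed names, 10 were tested. With IL-4, 6 rose and 3 fell in wild type, 1 rose and 5 fell in the knockout, and the response was more positive in wild type for 7 and more negative for 2. The shares of all genes were 26.4% higher and 30.8% lower in wild type, and 27.5% and 14.7% in the knockout. For the difference they were 16.4% and 28.3%. Ctsl, an endosomal protease, rose by 2.00 in wild type (adjusted p = 3.49e-09) and fell by 0.23 in the knockout (adjusted p = 0.0214). March1, the ubiquitin ligase that sends surface class II to lysosomes, rose by 1.10 in wild type (adjusted p = 0.000736) and fell by 1.74 in the knockout (adjusted p = 8.47e-05), a difference of 2.84. Cd83, a surface protein that opposes MARCH1, rose by 0.65 in wild type (adjusted p = 1.83e-06) and changed by 0.04 in the knockout (adjusted p = 0.566). Ctsd, another endosomal protease, rose by 0.38 (adjusted p = 0.000106) and fell by 0.36 (adjusted p = 0.00038). Sppl2a, which clears the invariant chain's last fragment, went the other way, with a change of -0.12 in wild type (adjusted p = 0.0388) and 0.62 in the knockout (adjusted p = 5.04e-06). Unlike the members, it was already lower in the knockout without IL-4, by a difference of -0.74 (adjusted p = 8.23e-06). With IL-4 the genotypes differed in Sppl2a by -0.009 (adjusted p = 0.875).

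H2-Ea-ps is the array's name for the E α gene, a pseudogene in C57BL/6 but intact in BALB/c. It stood at 5.05, 5.05 and 5.02 in wild-type cells, 5.07, 5.03 and 4.89 with IL-4, 4.92, 5.02 and 5.04 in knockout cells, and 4.41, 4.38 and 4.29 in the knockout with IL-4. The last 3 arrays were below all others, as for Cd74 and H2-Ab1, whereas those of its partner chain H2-Eb1 overlapped the knockout arrays without IL-4. It changed by -0.04 in wild type (adjusted p = 0.584) and by -0.63 in the knockout (adjusted p = 2.78e-05), and the responses differed by 0.59 (adjusted p = 0.000299).

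Genes of the class II region that are not class II genes were set beside the members. Psmb9, an immunoproteasome subunit, changed by -0.64 in wild type (adjusted p = 1.31e-06) and by 0.37 in the knockout (adjusted p = 0.000222). Tap1, a subunit of the peptide transporter, changed by -0.22 (adjusted p = 0.00246) and 0.38 (adjusted p = 0.000164). Over the 5 listed genes of the region, the difference of the responses passed as lower for 3 and higher for 0. The shares of all genes were 28.3% and 16.4%. H2-K1, a class I heavy chain, rose by 0.20 in wild type (adjusted p = 0.00389) and by 0.47 in the knockout (adjusted p = 3.89e-05), and Nlrc5, the class I counterpart of CIITA, rose by 0.40 and 0.52 (adjusted p = 0.000192 and 9.04e-05).

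**Figure D4:**
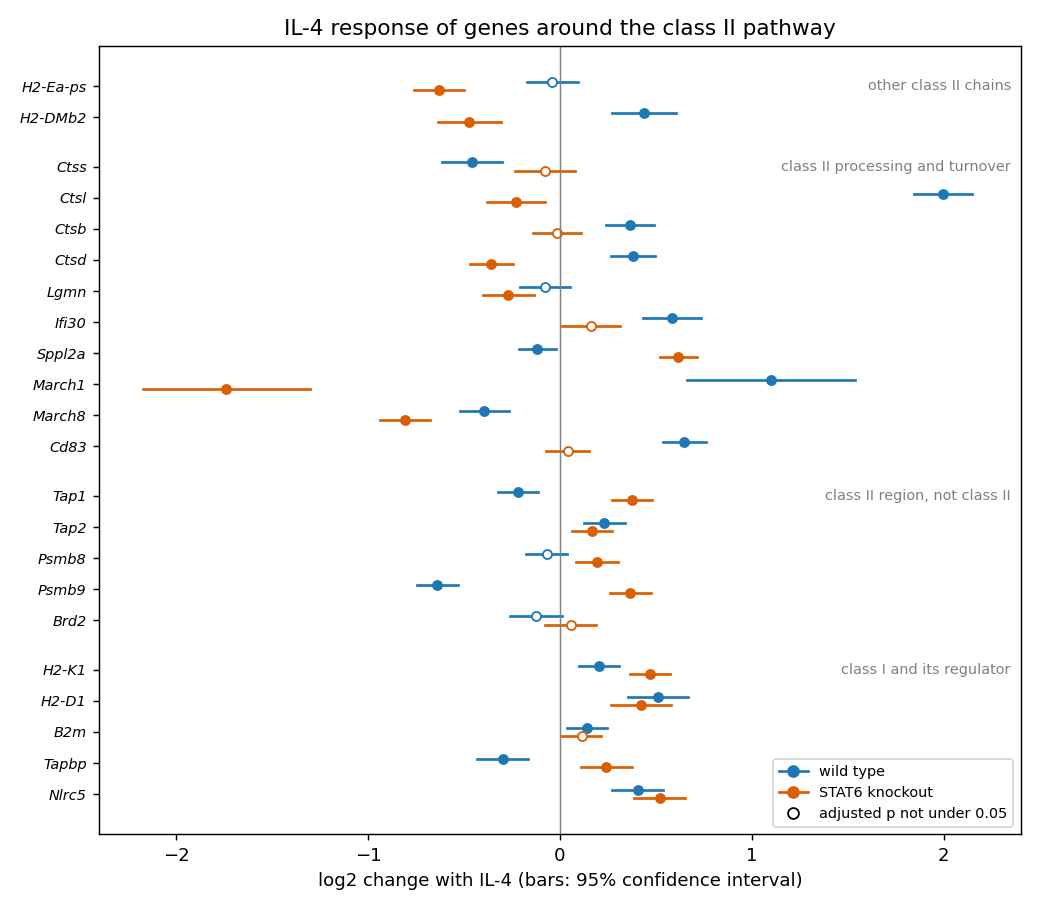
Log2 change with IL-4 for genes around the class II pathway, in wild-type (blue) and STAT6-knockout (orange) cells, with 95% confidence intervals; open points did not pass an adjusted p under 0.05. March1 (1.10 and -1.74) and Ctsl (2.00 and -0.23) are the farthest apart, and Psmb9 and Tap1 lie the other way round.

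Markers of other cells moved with IL-4 too, and their part in the class II values was not tested. Summed over the 6 plasma cell markers on the array, the linear level in multiples of the 75th percentile was 234 to 248 in wild-type cells, 234 to 239 with IL-4, 208 to 261 in knockout cells and 111 to 114 with IL-4. The sum is carried by the brightest probes, and single genes moved apart. In wild type Igj changed by -5.82 (adjusted p = 2.39e-10), Derl3 by -3.07 (adjusted p = 5.67e-09) and Xbp1 by 0.87 (adjusted p = 6.61e-07). In the knockout the same genes changed by -3.44 (adjusted p = 3.57e-07), -1.66 (adjusted p = 3.73e-06) and -0.90 (adjusted p = 3.58e-06). The 7 dendritic cell markers summed to 113 to 137, 134 to 142, 139 to 148 and 131 to 152 in the same order, with Clec9a and Xcr1 above background on no array. Here too single genes moved: in wild type Batf3 rose by 2.52 (adjusted p = 1.78e-08) and Zbtb46 by 1.35 (adjusted p = 1.83e-07), and Flt3 changed by -1.65 (adjusted p = 1.37e-07). Itgax, above background on 3 of the 12 arrays, was also called higher (adjusted p = 2.99e-05). The responses of Batf3 and Flt3 differed between the genotypes by 2.05 (adjusted p = 2.76e-06) and -1.74 (adjusted p = 3e-06). The 7 macrophage and monocyte markers on the array summed to 63.6 to 66.3, 26.1 to 27.0, 62.6 to 66.6 and 63.8 to 66.5. Mpeg1 fell in wild type by 3.73 (adjusted p = 3.37e-10). The T cell markers summed to 138 to 147 in wild type with IL-4 and to 32.2 to 40.8 elsewhere. Of these, Thy1 rose from not well above background in wild type (adjusted p = 2.6e-11) to a log2 level of 6.77. That made it the brightest of the list there, with Lck next at 4.94. Cd3d rose by 0.73 (adjusted p = 0.00121), while Cd3e, Cd3g, Cd4 and Lck did not pass in wild type. Cd8a was above background on no array. The 4 NK cell markers summed to 4.13 to 6.17 over all arrays, with Klrb1c and Ncr1 above background on none.

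Among 14712 other genes above background on all 12 arrays, those with the pattern most like H2-Ab1 were BC052688, Oaz2, Slc11a2, Hes6 and Spcs2. Their root mean square differences from it ran from 0.0353 to 0.0635 (log2, each gene centred on its own mean), where the pattern of H2-Ab1 itself had a root mean square of 0.186. The 5 features most like Ciita carry only genome positions as names. They lay 0.168 to 0.335 from it, against a root mean square of 0.61 for Ciita itself, and none of their probes holds AAAC.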

How the data were processed

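Per the file headers, the authors scanned 1-colour Cy3 arrays and extracted them with Agilent Feature Extraction 10.7.3.1 (mm9 probe positions). The deposited scanner files give background-subtracted spot intensity, and the deposited gene-level table gives log2 values whose combination of probes is not given in the sources used here. Here log2 of the processed intensity minus each array's 75th percentile was used, without control spots and outlier spots (122 to 196 an array), with spots of a probe averaged. A probe was kept (22939 of 55681) when some group had it well above background on each of its 3 arrays. Each gene was represented by its brightest kept probe over the 12 arrays. limma 3.58.1 (R 4.3.3) fitted 4 group means over all 12 arrays, and was tested on simulated data. RNA (100 ng, integrity numbers 9.6 to 9.9) came from stimulated cultures, with fresh medium on day 3. Correlations between arrays of a group were 0.9939 to 0.998.

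Replicate numbers were not used to pair the samples, and whether they pair is not settled. Of 18 same-numbered pairs, 2 had correlated deviations over 0.1, each between knockout arrays with and without IL-4 (0.316 and 0.392). A differently numbered pair of these groups reached 0.313. All 10 members were named; of the other lists, up to 4 genes with the smallest adjusted p, and Rfx5, Nfya, Sppl2a, H2-Ea-ps and H2-DMb2 as class II genes or regulators. Members and lists were chosen with earlier results of these data known. The exon or UTR position of the probes was not analysed here. Sequences are RefSeq's (GRCm38.p6) and the array's probes. Alternatives were quantile, median and normexp settings, probe filters, probe means, the deposited table, variance settings, slide and replicate blocks, single slides, a 2-fold minimum and leaving out each array.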

Additional observations from a re-analysis of the deposited data

Results flagged for a closer look

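For 7 members the IL-4 response differed between wild-type and knockout cells by limma's test of the difference. The wild-type response minus the knockout response (log2) was 1.31 for H2-DMa, 1.16 for H2-DMb1, 0.92 for H2-Aa, 0.72 for H2-Oa, 0.44 for H2-Ab1, 0.31 for H2-Ob and 0.25 for Cd74. All 3 knockout arrays with IL-4 lay on slide 2 and all wild-type arrays on slide 1. With slide as a block, all 7 passed, and the value for H2-DMa was 1.32. That fit takes the wild-type response within slide 1 and the knockout response against knockout control 3 alone.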

How the results depend on the processing

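At the gene level, 911 of 935 recomputed member values kept their side of the threshold, and called ones kept their direction. Among these, values that passed in neither setting could change sign. H2-Eb1 in wild type, for example, went from -0.05 to 0.09 under quantile normalisation. In wild type, members called higher were 5 (3 in the report) under quantile normalisation and 6 in the authors' deposited table. Members called lower were 1 (2 in the report) under median scaling, under the mean of kept probes and in the authors' deposited table. Over all genes, calls either way in wild type were 9427 in the report and 9578 under quantile normalisation. They were 7625 under median scaling, 9413 under the mean of kept probes and 9543 in the deposited table. Cd74 turned to 0.14 under quantile normalisation and to 0.15 in the deposited table, H2-Eb1 to 0.12 in that table, and H2-Ob to 0.063 under the mean of its probes. In the knockout, members called lower were 4 under median scaling (8 in the report). Within slide 2 the knockout IL-4 arrays meet a single control array, so calls there are not given. The changes of 5 members there, such as -0.41 for H2-DMa, were no smaller. The difference passed as higher for 4 under median scaling (7 in the report), and Cd74 and H2-Ob no longer passed without a filter on dim probes (adjusted p = 0.0736 and 0.0615). With a 2-fold minimum the counts were 0 and 0 in wild type, 0 in the knockout, 2 for the difference and 2 for the knockout against wild type with IL-4. Leaving out each array in turn, normexp correction, other variance settings and slide as a block changed no call of a member. The replicate block also changed none, with 3 higher and 2 lower in wild type, 8 lower in the knockout and 7 for the difference.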

Other observations

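The genes most like the other members were looked up after their values had been seen. Ctsd lay 0.0485 (root mean square log2 difference over 12 arrays, each gene centred on its own mean) from H2-Oa, the closest gene to it. Pink1 lay 0.0971 from H2-Aa, and the next 2 were S1pr4 at 0.104 and Il4i1, an enzyme named for its induction by IL-4, at 0.113. Snx8, Bmp1 and Atp6v0a1 were the closest to H2-DMa, at 0.096, 0.103 and 0.105. Dexi, whose probe lies beside that of Ciita at chr16:10530355-10530414 (mm9), was the fourth closest to H2-DMa at 0.111. Snn, also on chromosome 16, was the closest to H2-DMb1 at 0.0833. A link of either pattern to the position near Ciita was not tested. The farthest pair of members was H2-Eb2 and H2-DMa, at 0.719.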
